A study of Mus musculus with 10 samples.

Results

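The genes described here are 33 general DNA repair genes of the Fanconi anaemia and homologous recombination pathways, taken by name as a fixed list from the 55536 genes of the count table. Genes that act only in meiosis were left out of the list. All 33 passed the filter on low counts, which kept 20317 genes, so every member was tested. The genes were measured in oocytes sorted from mouse fetuses at E14.5, in 4 Taf4b-deficient, 4 Taf4b-heterozygous and 2 Taf4b-wildtype libraries of bulk RNA. The Taf4b protein belongs to TFIID, the general transcription factor that recognises core promoters, and is most abundant in gonads. The labels call deficient females infertile and the other genotypes fertile. The labelled strain is C57BL/6. Parents carried 1 mutant Taf4b copy and were homozygous for the Oct4-EGFP reporter used for sorting, so libraries of all 3 genotypes carry the reporter. The labels do not say which part of Taf4b is removed, or whether a library is 1 animal or a pool. The p-values therefore measure the spread between these libraries, which may be technical.

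The repair genes work in sequence. A core complex of Fanconi proteins (products of Fanca, Fancb, Fancc, Fance, Fancf, Fancg and Fancl, recruited by Fancm) attaches ubiquitin to the pair FANCD2 and FANCI where a crosslink blocks replication. Nucleases such as ERCC1-ERCC4 and MUS81-EME1, held by the scaffold SLX4, cut the DNA, and the break is trimmed by CtIP (Rbbp8) with the MRE11-RAD50-NBN complex. BRCA1, BARD1 and PALB2, a family of related strand-exchange helpers (Rad51b, Rad51c, Rad51d, Xrcc2 and Xrcc3) and the RAD54 proteins then promote invasion of an intact DNA copy, and the BLM and WRN helicases unwind the joined strands. Germ cells use the same machinery, since primordial germ cells divide fast and meiotic recombination repairs programmed breaks, and loss of Fanconi genes is known to deplete germ cells.

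Stretches upstream of 3 members are shown because these genes differed between libraries in the results that follow, Xrcc3 and Fancb with meiotic stage and Brca1 with a marker of ribosomal RNA-like reads. Each is the 150 bases before the RefSeq start (GRCm38.p6), 5′ to 3′ on the strand of the gene. Capitals mark GGGCGG (the GC box) or CCAAT on either strand. Among the members that moved in those results, these are the ones whose stretch holds no exon of the GENCODE M21 annotation.
Xrcc3 (chr12:111813880-111814029, minus strand): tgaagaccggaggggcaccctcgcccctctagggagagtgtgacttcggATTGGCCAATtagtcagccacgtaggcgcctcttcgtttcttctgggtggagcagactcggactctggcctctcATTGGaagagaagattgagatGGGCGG
Fancb (chrX:164980442-164980591, plus strand): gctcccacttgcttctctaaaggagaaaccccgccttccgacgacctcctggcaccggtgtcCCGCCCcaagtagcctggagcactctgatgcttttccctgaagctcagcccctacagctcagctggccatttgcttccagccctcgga
Brca1 (chr11:101551956-101552105, minus strand): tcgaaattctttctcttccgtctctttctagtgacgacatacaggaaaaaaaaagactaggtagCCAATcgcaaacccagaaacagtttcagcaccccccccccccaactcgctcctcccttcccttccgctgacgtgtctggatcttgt
The Xrcc3 stretch holds 3 CCAAT and 1 GGGCGG, that of Fancb 1 GGGCGG, and that of Brca1 1 CCAAT. RefSeq starts were matched by symbol for 25 of the 33 members; Fancd2, Nbn, Rad50, Rad51d, Rad54b, Rbbp8, Wrn and Xrcc2 had no entry. GGGCGG lay in 14 of the 25 (56.0%) and in 31.3% of the 27020 genes with an entry. CCAAT lay in 9 (36.0%, against 27.7% of all), and 3 copies of it precede Fancf. The E2F-type words TTTCGCGC, TTTGGCGC or TTTCCCGC lay in 2, Fancg and Topbp1 (8.0%, against 1.19% of all). CACGTG and TTTGAA lay in none of the 25, and in 4.92% and 10.5% of all. Both strands were searched, and a match is a description of letters only.

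Library totals ran from 28949924 to 44166320 reads. Taf4b stood at 56.1 to 64.9 CPM (counts scaled to a common library size with TMM) in the deficient libraries and at 144 to 234 CPM in the others, without overlap. The 10 germ cell markers summed to 5493 to 6159 CPM per library, led by Dazl. Markers of supporting cells (10 of 10 tested) summed to 17.4 to 47.5 CPM and those of stromal and mesothelial cells (6 of 10 tested) to 8.64 to 22.5 CPM. Blood and macrophage markers (13 of 13 tested) summed to 24.6 to 29.5 CPM where Taf4b was deficient, 8.81 to 17.97 CPM in heterozygotes and 18.3 to 27.5 CPM in wildtypes; in this list the globin genes Hbb-bt and Hba-a1 were at 0 in 1 and 2 libraries. Endothelial markers (4 of 6 tested) summed to 66.8 to 386 CPM, nearly all of it Pecam1 (64.8 to 380 CPM), while Kdr, Tek and Cldn5 stayed at or below 5.45 CPM. Emcn, which was not tested, had no read in 4 libraries.

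All 33 members were transcribed at this age. Levels between genes are compared in TPM (transcript abundance scaled for gene length and library size). The mean over the 10 libraries was 7.07 to 130 TPM, with a median of 32.8 TPM, and 32 of 33 members lay above the median of all tested genes (7.48 TPM). By this measure 13 members stood at 50 TPM or more, 17 between 10 and 50, and 3 below 10.

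**Figure D1:**
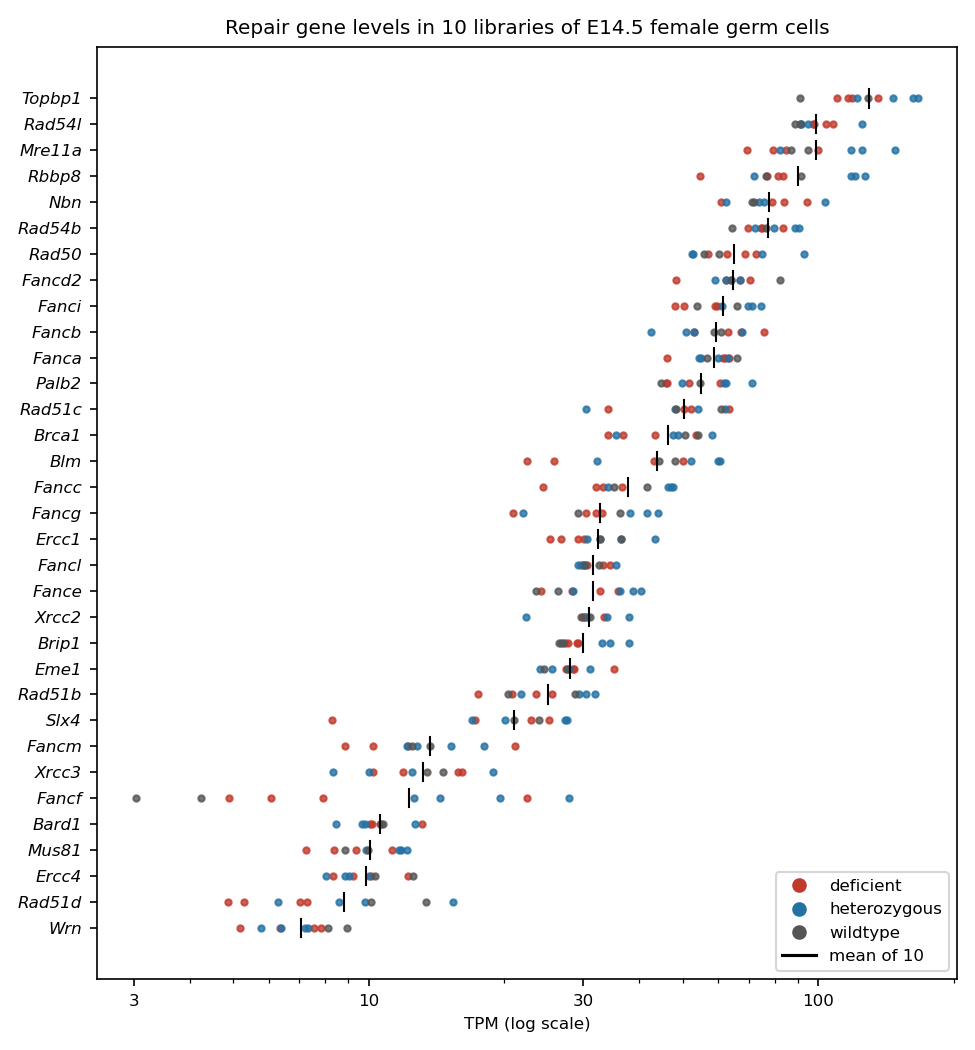
TPM of each of the 33 repair genes (rows, ordered by mean) on a log axis; each point is 1 of 10 libraries, coloured by genotype, and the black tick is the mean of all 10. Topbp1 is highest at a mean of 130 TPM, Wrn is lowest at 7.07 TPM, and Fancf is spread most widely.

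Topbp1, whose product activates the ATR checkpoint kinase, led at 130 ± 23.6 TPM (SD, n = 10). Among the 4 genes of end resection, Mre11a stood at 98.9 ± 24.5, Rbbp8 at 90.2 ± 24.0, Nbn at 77.6 ± 13.3 and Rad50 at 65.0 ± 12.7 TPM (SD, n = 10 each). Rad54l and Rad54b, whose products remodel chromatin during strand invasion, stood at 99.0 ± 11.1 and 77.5 ± 8.29 TPM. Neighbours in this order overlap within their SD. Fancd2 and Fanci, the pair that the core complex modifies, had nearly the same level (64.6 ± 8.61 and 61.3 ± 9.08 TPM).

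The core complex was uneven. Fancb and Fanca stood at 59.3 ± 9.78 and 58.7 ± 5.89 TPM, Fancc, Fancg, Fancl and Fance between 31.5 and 37.8 TPM, and Fancm and Fancf at 13.7 ± 3.63 and 12.3 ± 8.62 TPM. Of the BRCA1 partners, Palb2 (54.8 ± 8.82 TPM) and Brca1 (46.2 ± 8.44 TPM) were well above Bard1, the partner that forms the BRCA1 ubiquitin ligase, at 10.6 ± 1.39 TPM (SD, n = 10 each). The helicase gene Brip1 stood at 29.9 ± 3.90 TPM. Among the strand-exchange helpers, Rad51c was highest (50.3 ± 11.1 TPM) and Rad51d lowest (8.80 ± 3.45 TPM), with Xrcc2 at 30.9, Rad51b at 25.0 and Xrcc3 at 13.2 TPM. The nuclease partners differed in level: Ercc1 at 32.3 against Ercc4 at 9.87 TPM, and Eme1 at 28.1 against Mus81 at 10.1 TPM. The scaffold gene Slx4 stood at 21.1 TPM, Blm at 43.8 TPM and Wrn at 7.07 TPM.

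By the median, members varied between libraries slightly less than other tested genes. Over the 10 libraries the coefficient of variation of CPM was 6.94% to 64.8% with a median of 15.3%, against a median of 18.2% for the 9414 tested genes with a mean at least as high as the lowest member's (9.96 CPM). It was under 20% for 27 of the 33, a share not counted over all genes. The compared genes were matched to the members only by the lowest member's level. Brip1, Rad51c, Rad54b and Rad54l were the steadiest (6.94%, 7.07%, 7.87% and 8.36%). Fancf, Fancm, Blm, Xrcc3, Slx4 and Rad51d varied most, at 64.8%, 30.3%, 30.1%, 27.4%, 24.0% and 22.4%. The sum over members was lowest in deficient replicate 2 (2233 CPM) and 2486 to 2641 CPM in the other libraries. A lower value in bulk RNA can come from fewer cells of a type or from less RNA per cell, which cannot be told apart here.

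**Figure D2:**
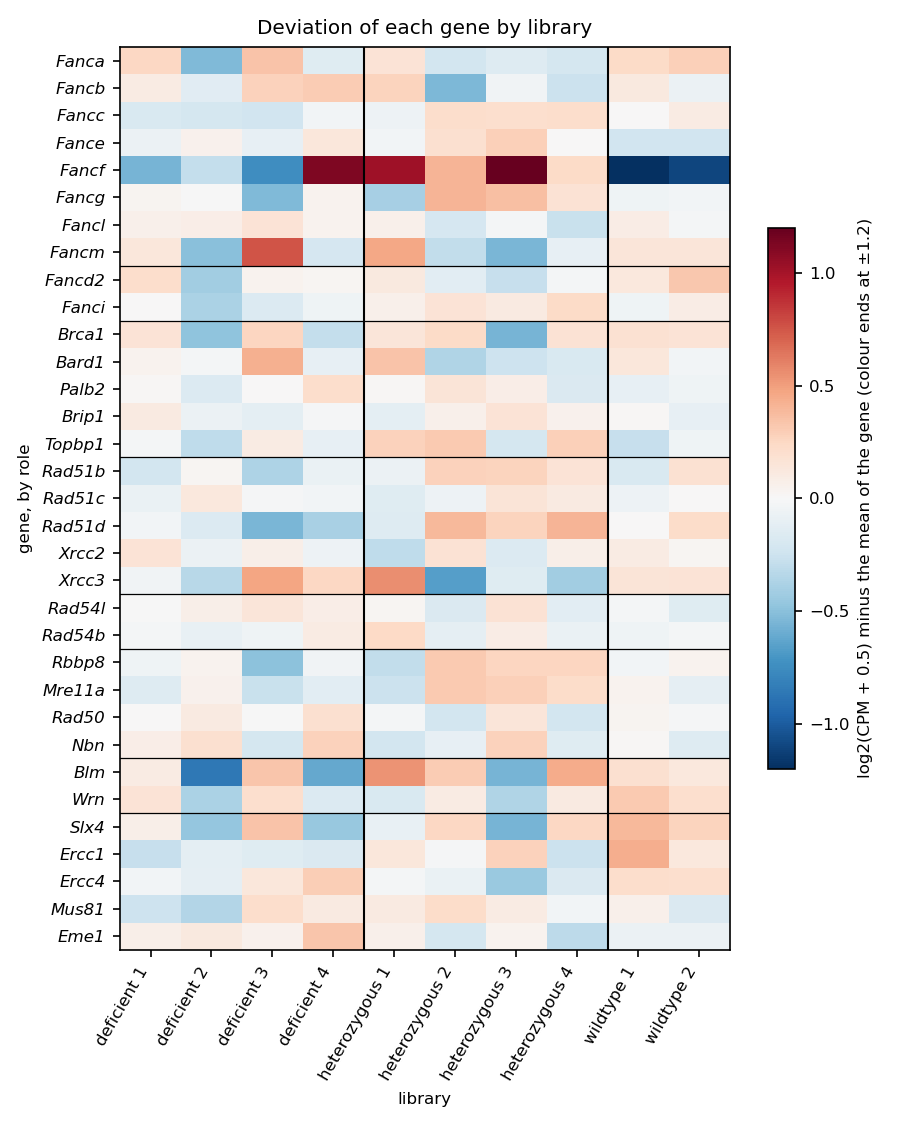
Colour shows log2(CPM + 0.5) of each repair gene in each library minus that gene's mean, with genes as rows grouped by role and libraries as columns grouped by genotype; red is above and blue below the mean. No block of rows differs between genotypes as a whole, and the Fancf row holds the strongest colours.

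Deficient against heterozygous libraries asked what follows when the remaining Taf4b copy is lost. No repair gene was called by edgeR's quasi-likelihood test at a Benjamini-Hochberg adjusted p under 0.05, and 0.0148% of all tested genes were (0.00984% higher, 0.00492% lower). At an unadjusted p under 0.05 there were 3 members (11.9% of all genes): Rad51d, Fancc and Fanci. Of the 33, 14 stood higher and 19 lower, and the median log2 fold change was -0.06, against -0.05 over all genes. DESeq2 called no member. With sample weights, limma voom called 4 of the 33 (Eme1 higher, and Fancc, Mre11a and Rad51d lower). It called 3012 of the 20317 tested genes, so the share of members was no higher than that of all genes.

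Rad51d, one of the strand-exchange helpers (ENSMUSG00000018841; GRCm38 chromosome 11, 82876434 to 82890614, minus strand, 10 exons, no other annotated gene overlapping), had the smallest p of the members. Deficient replicates 1 to 4 held 14.6, 13.3, 10.1 and 11.3 CPM of it. Heterozygous replicates 1 to 4 held 13.4, 19.7, 18.1 and 20.02 CPM, and the wildtype pair 15.0 and 17.5 CPM. Deficient libraries were the low ones, and heterozygous replicate 1 was the only fertile library inside their range. The means were 12.3 ± 2.02 (SD, n = 4), 17.8 ± 3.04 (SD, n = 4) and 16.3 ± 1.75 CPM (SD, n = 2). The log2 fold change of deficient against heterozygous was -0.53 (SE 0.19, 95% interval -0.90 to -0.17, edgeR adjusted p = 0.379), so the difference was not called. Without heterozygous replicate 1 it was -0.60 (edgeR adjusted p = 0.0717), and the genes called went from 3 to 519, no member among them. Taken date by date, no deficient library reached a fertile one of the same litter date in Rad51d. The nearest were deficient replicate 1 (14.6 CPM) and wildtype replicate 1 (15.0 CPM), both of January 29. Each date holds few libraries, and the share of all genes with such an order was not counted. The blood and macrophage markers were also without overlap between these 2 genotypes (24.6 to 29.5 against 8.81 to 17.97 CPM); their part in the result was not tested.

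In TPM the deficient replicates of the same gene read 7.29, 7.02, 5.27 and 4.87, the heterozygous ones 6.29, 9.79, 8.60 and 15.4, and the wildtype ones 13.4 and 10.1. Heterozygous replicate 1 again fell inside the deficient range, and the order among the fertile libraries was not the one seen in CPM. Deficient libraries averaged 6.11 ± 1.22 TPM (SD, n = 4) against 10.0 ± 3.85 (SD, n = 4) and 11.8 ± 2.33 TPM (SD, n = 2). With the stage score that is defined with the stage results as a term beside genotype, the log2 fold change of deficient against heterozygous was -0.36 (edgeR adjusted p = 0.332).

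**Figure D3:**
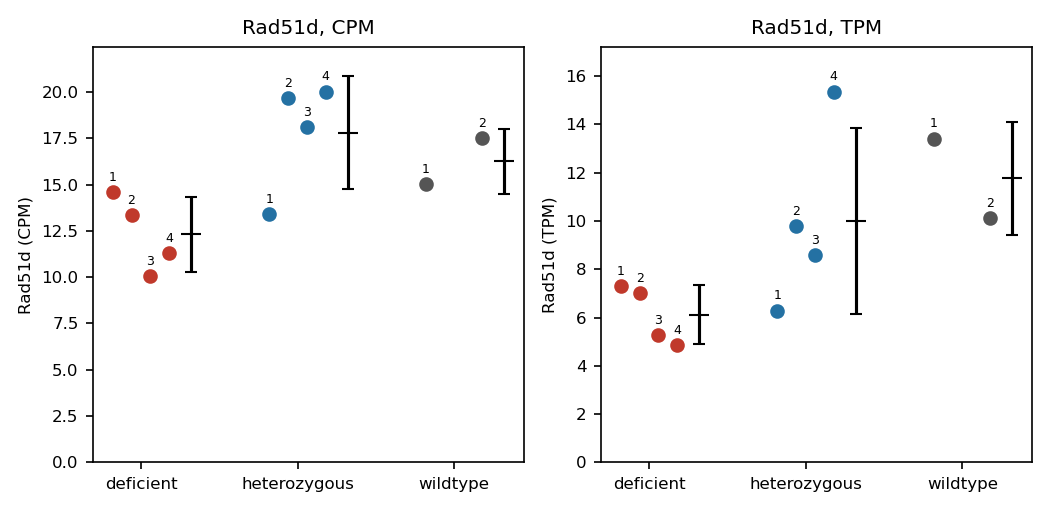
Rad51d in CPM (left) and TPM (right) by genotype; each point is a library with its replicate number, and the bar beside the points is the mean with its SD (n = 4, 4 and 2). Deficient libraries span 10.1 to 14.6 CPM and overlap with heterozygous replicate 1 alone on both scales.

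Fancc, a core complex gene, read 41.6, 40.9, 40.1 and 46.0 CPM in the deficient replicates, below 3 of the 4 heterozygous ones (45.4, 54.6, 54.3 and 54.9 CPM) (log2 fold change -0.31, SE 0.12, edgeR adjusted p = 0.385). Heterozygous replicate 1 was again the low library of its group. Fanci was the 1 member whose groups did not overlap in CPM, with a deficient range of 86.9 to 114 and a heterozygous one of 118 to 133, and 5.97% of all genes were without overlap. Fancc has 10 other genes overlapping it in the annotation, 5 of them on its own strand, so its count is uncertain.

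In deficient against wildtype libraries, which compares loss of Taf4b with the unaltered genotype, no member was called by edgeR, as for all genes (0% called), nor by DESeq2 or voom. At an unadjusted p under 0.05 there were 2 members (3.66% of all genes), Fancf and Ercc1. The median was -0.03 (14 higher, 19 lower), against 0.0046 over all genes. Ercc1, the nuclease subunit that anchors ERCC4, read 19.1, 21.3, 21.0 and 20.6 CPM in the deficient replicates against 31.5 and 25.3 CPM in the wildtype pair (log2 fold change -0.47, SE 0.19, edgeR adjusted p = 1.00), and the value was -0.31 without wildtype replicate 1. It overlaps Cd3eap on the other strand. For Rad51d the difference from wildtype was -0.40 (SE 0.22, 95% interval -0.84 to 0.041, edgeR adjusted p = 1.00), without overlap of the groups. In CPM the groups did not overlap in 7 members: Rad54l, Fancf, Eme1 and Fance higher and Ercc1, Rad51d and Fancc lower. On that scale 12.6% of all genes were without overlap.

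Deficient libraries against both fertile genotypes, the contrast closest to the labelled infertility, gave no call among the members by edgeR (0.00492% of all genes), DESeq2 or voom. At an unadjusted p under 0.05 there were 3 (4.31% of all genes): Rad51d at -0.47 (SE 0.18, 95% interval -0.81 to -0.12), Ercc1 at -0.35 (SE 0.15) and Fancc at -0.26, each with an edgeR adjusted p of 0.904. The members' median was -0.02 and that of all genes -0.01. In CPM, no member was without overlap between the 4 deficient and 6 fertile libraries, against 1.39% of all genes. In TPM, Ercc1 was without overlap, at 25.3 to 30.1 in deficient and 30.6 to 43.3 in fertile libraries. The share of all genes without overlap in TPM was not counted. The comparisons with deficient libraries share the same deficient libraries and are not independent of each other. In the authors' deposited table, whose contrast no source names, Rad51d has the smallest p-value of the 33 members with a log2 fold change of -0.50, a p-value of 0.00863 and an adjusted p-value of 0.664.

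Heterozygous against wildtype libraries asked whether 1 Taf4b copy differs from 2. By edgeR no member was called (0.00492% of all genes), and by voom none; DESeq2 called 1, Fancf. Fancf and Fance had an unadjusted p under 0.05 (2 members; 8.30% of all genes). The median was 0.05 (18 higher, 15 lower), against 0.02 over all genes. Fance, a core complex gene, stood at 51.1, 59.7, 64.0 and 52.4 CPM in heterozygous against 44.7 and 44.7 CPM in wildtype libraries (log2 fold change 0.35, SE 0.16, edgeR adjusted p = 0.596). Rad51d differed by 0.13 (SE 0.23, 95% interval -0.32 to 0.58, edgeR adjusted p = 0.902), and by -0.29 in TPM with a pseudocount of 0.1 (limma adjusted p = 0.847), so its direction was not fixed. In CPM the groups did not overlap in 7 members, of which Fancf and Fance were higher and Fancd2, Wrn, Fanca, Slx4 and Ercc4 lower. On that scale 15.8% of all genes were without overlap.

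Fancf, the adaptor of the core complex, was the most variable member. It has 1 exon (ENSMUSG00000092118; GRCm38 chromosome 7, 51860577 to 51862267, minus strand) and overlaps Gas2 on the other strand. Deficient replicates 1 to 4 held 5.92, 7.24, 5.12 and 20.01 CPM of it. Heterozygous replicates 1 to 4 held 18.5, 12.0, 22.0 and 10.6 CPM, and the wildtype pair 3.24 and 3.89 CPM. The high libraries were deficient replicate 4 and the heterozygous ones, and the lowest were both wildtype libraries. Heterozygous against wildtype gave a log2 fold change of 2.15 (SE 0.58, edgeR adjusted p = 0.247) and deficient against wildtype one of 1.43 (SE 0.56, edgeR adjusted p = 1.00), or 0.77 without deficient replicate 4. Without the 3 libraries low in Gm23935, a gene described with the last result, edgeR called Fancf in heterozygous against wildtype.

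Fancf also followed the litter date. Deficient replicate 4 and heterozygous replicates 1 to 3 came from the litters of March 7, and each was above every other library of its own genotype. With genotype in the model, the March 7 libraries stood higher by 1.22 on the log2 scale (SE 0.28, unadjusted p = 0.00149, edgeR adjusted p = 0.999). The value was 0.72 without deficient replicate 4, 1.73 without heterozygous replicate 4 and 0.54 without the 3 libraries low in Gm23935. No member and no gene was called for this litter term by edgeR; 1 member (2.88% of all genes) had an unadjusted p under 0.05, and DESeq2 and voom called none of the members. Palb2 came next at 0.26 (SE 0.12, edgeR adjusted p = 0.999). Gas2 ran from 23.4 CPM in wildtype replicate 1 to 48.4 CPM in deficient replicate 4. As a fold this spread was far smaller than that of Fancf (3.24 to 22.0 CPM), but in CPM it was not. Deficient replicates 1 to 4 held 30.2, 35.1, 30.3 and 48.4 CPM of Gas2. Heterozygous replicates 1 to 4 held 38.8, 33.6, 39.1 and 36.9 CPM of it, and the wildtype pair 23.4 and 29.7 CPM. Since no source gives the strand setting of the counting, reads of the genes cannot be told apart. The March 7 date holds 3 of the 4 heterozygous and no wildtype libraries, so litter and heterozygosity overlap. Deficient replicate 4 and heterozygous replicate 3, both of March 7, were also low in Gm23935, so litter and Gm23935 overlap in part. With the log2 CPM of Gm23935 as the term beside genotype, the slope of Fancf was -0.22 (SE 0.063, edgeR adjusted p = 0.102). Deficient replicate 2, low in Gm23935 but of another litter date, held 7.24 CPM of Fancf.

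Meiotic stage was described with a score per library, the mean log2 CPM of 29 meiosis-only genes minus that of 18 pluripotency genes, none of them a member. Deficient replicates 1 to 4 scored 0.12, 1.17, -1.89 and -0.34. Heterozygous replicates 1 to 4 scored -1.91, 2.03, 1.76 and 1.66, and the wildtype pair -0.080 and 0.29. Deficient replicate 3 and heterozygous replicate 1 were the least advanced by this measure. The score was measured in the same libraries, so its slope describes how a gene moves with other genes and tests no labelled condition. The sum of the endothelial markers was highest in these same libraries (379 and 386 CPM), and Pecam1 alone gave 373 and 380 CPM of it. Cldn5 was also highest there (5.45 and 4.19 CPM, against 1.14 to 1.52 CPM in heterozygous replicates 2 to 4). Kdr and Tek were highest elsewhere, Kdr in heterozygous replicate 4 (1.05 CPM) and Tek in deficient replicate 4 (1.99 CPM). The part of endothelial cells in the slopes was not tested.

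Within genotypes, 8 of the 33 members changed with the score by edgeR, while 24.6% of all genes did, so the share (4 rising against 12.8% of all genes, 4 falling against 11.8%) is near the background. DNA end resection supplied 2 of the rising genes. Rbbp8, which starts resection, rose by 0.16 per unit of score (SE 0.030, edgeR adjusted p = 0.00336), from 89.7 and 102 CPM in the 2 least advanced libraries to 151 to 156 CPM in heterozygous replicates 2 to 4. Mre11a, the nuclease of the break-binding complex, rose by 0.13 per unit (SE 0.031, edgeR adjusted p = 0.0129), from 120 and 121 CPM to 169 to 180 CPM in the same libraries. Its partners did not pass the test: Rad50 had a slope of -0.0056 and Nbn of 0.080 (edgeR adjusted p = 0.932 and 0.238). Whether the slopes of the 3 subunits differ was not tested.

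The strand-exchange helpers went both ways. Rad51d rose by 0.15 per unit (SE 0.045, edgeR adjusted p = 0.0362), a call that was lost in 13 of its 25 alternatives (adjusted p up to 0.961). Xrcc3, which pairs with RAD51C, fell by 0.27 per unit (SE 0.046, edgeR adjusted p = 0.00206), from 22.3 and 23.7 CPM in the least advanced libraries to 9.88 to 14.4 CPM in heterozygous replicates 2 to 4. Rad51b, Rad51c and Xrcc2 did not pass the test, with slopes of 0.10, 0.050 and 0.053 (edgeR adjusted p = 0.0947, 0.327 and 0.415).

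In the core complex, Fancg rose by 0.19 per unit (SE 0.040, edgeR adjusted p = 0.00621), and Fancm and Fancb fell. Fancg stood at 36.4 and 39.7 CPM in the least advanced libraries and at 59.3 to 69.9 CPM in heterozygous replicates 2 to 4. Fancm, the translocase that recruits the complex, fell by 0.27 per unit (SE 0.054, edgeR adjusted p = 0.00517), with 78.3 and 64.2 CPM in the least advanced libraries and 31.5 to 43.3 CPM in heterozygous replicates 2 to 4. Fancb, which is X-linked, fell by 0.15 per unit (SE 0.041, edgeR adjusted p = 0.0248), a call lost in 10 of 25 alternatives. Bard1 fell by 0.16 (SE 0.037, edgeR adjusted p = 0.0105). The levels of Fancb were 113 and 112 CPM in deficient replicate 3 and heterozygous replicate 1, and 64.2 to 90.5 CPM in heterozygous replicates 2 to 4. None of the 5 nuclease genes, 2 RAD54 genes, 2 helicase genes or the Fancd2 and Fanci pair passed.

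**Figure D4:**
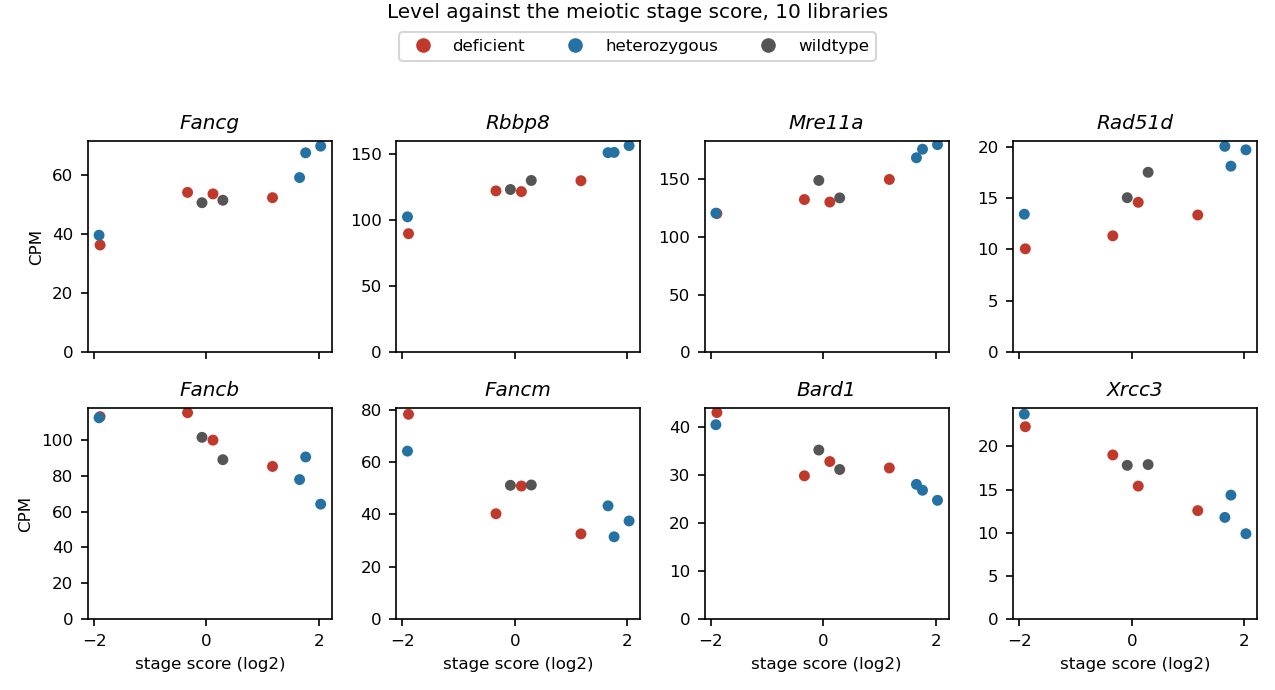
CPM of the 8 repair genes that changed with the stage score (upper row rising, lower row falling) against the score in log2 units; each point is 1 of 10 libraries, coloured by genotype. The 2 points at the far left, deficient replicate 3 and heterozygous replicate 1, are the lowest or among the lowest in the upper panels and among the highest in the lower ones.

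The calls depended on the least advanced libraries, and so did some of the slopes. Without heterozygous replicate 1 no member was called and the count over all genes fell from 5004 to 662, while the slopes kept their direction (Rbbp8 0.18, Fancg 0.18, Rad51d 0.16, Mre11a 0.091, Fancb -0.15, Bard1 -0.16, Xrcc3 -0.28 and Fancm -0.38). Without that library and deficient replicate 3, no member and no gene was called. There the slopes of Xrcc3 (-0.41), Fancb (-0.35) and Fancm (-0.29) were at least as steep, those of Rad51d (0.10), Mre11a (0.086), Rbbp8 (0.053) and Bard1 (-0.046) were flatter, and that of Fancg turned to -0.018. With litter date as a term, which compares libraries within dates, 5 of the 8 were called (Bard1, Fancg, Fancm, Rbbp8 and Xrcc3). Mre11a, Fancb and Rad51d had edgeR adjusted p-values of 0.0522, 0.0517 and 0.0987. The share of all genes called in this fit is not given, so the 5 calls cannot be read against it.

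One more pattern followed Gm23935, a gene whose reads can stem from ribosomal RNA. It stood at 454, 141 and 87.4 CPM in deficient replicates 2 and 4 and heterozygous replicate 3, and at 4146 to 5068 CPM in the other libraries. With its log2 CPM as a term beside genotype, 3 members were called, all higher where Gm23935 was higher, while 3.57% of all genes were called, 3.25% in that direction and 0.32% in the other. The fit was chosen after seeing the values. Blm, the helicase that dissolves joined DNA molecules, read 105, 53.6, 123 and 63.7 CPM in the deficient replicates, 142, 120, 66.2 and 133 CPM in the heterozygous ones and 111 and 106 CPM in the wildtype pair. The 3 libraries low in Gm23935 were its lowest, without overlap with the others (slope 0.19 per log2 unit of Gm23935, SE 0.031, edgeR adjusted p = 0.0112). Brca1 stood at 114, 131 and 108 CPM in those libraries and at 177 to 190 CPM in the others (slope 0.13, SE 0.023, edgeR adjusted p = 0.0165), a call lost in 8 of 20 alternatives. Slx4 stood at 23.9, 24.0 and 22.3 CPM there and at 31.0 to 43.4 CPM elsewhere (slope 0.14, SE 0.030, edgeR adjusted p = 0.0387), and its call was lost in 14 of 20 alternatives. The share of all genes that split the libraries without overlap, as Blm, Brca1 and Slx4 do, was not counted.

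**Figure D5:**
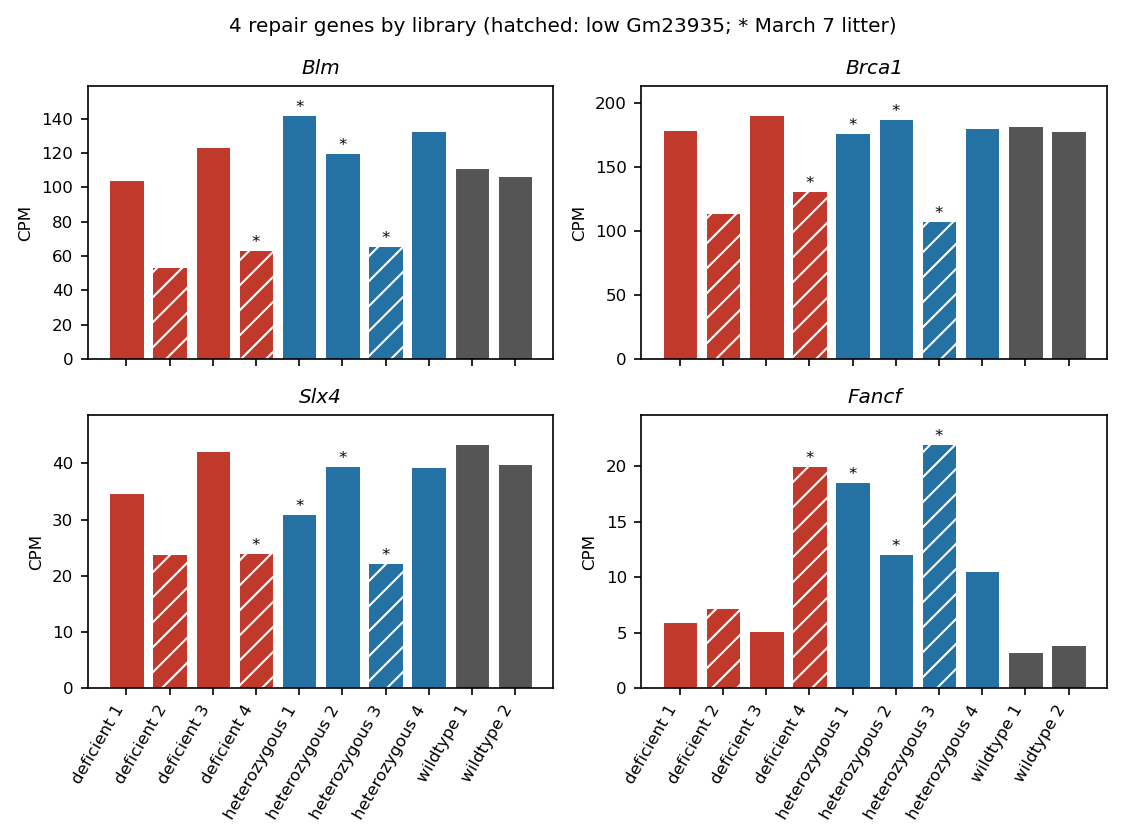
CPM of Blm, Brca1, Slx4 and Fancf in each of the 10 libraries, with bars coloured by genotype; hatched bars are the 3 libraries low in Gm23935 and asterisks mark the March 7 litters. Blm, Brca1 and Slx4 are lowest in the hatched libraries, and each asterisked bar of Fancf is above the other bars of its genotype.

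Deficient replicates 2 and 4 are 2 of the 4 deficient libraries and heterozygous replicate 3 is 1 of 4, and no wildtype library is low in Gm23935. The genotype means of Blm therefore hold them in unequal number: deficient libraries averaged 86.4 ± 33.1 CPM (SD, n = 4), heterozygous ones 115 ± 34.0 CPM (SD, n = 4) and the wildtype pair 109 ± 3.41 CPM (SD, n = 2). Without heterozygous replicate 3 none of the 3 members was called, and without deficient replicate 3, heterozygous replicate 4 or wildtype replicate 2 the call was Blm alone. With litter date as a term no member was called. The shares of all genes called in these fits are not given, so the calls cannot be read against them.

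The remaining genes of these pathways, a list of 58 names of which 57 were in the table and tested, gave no call by edgeR in any of the 4 genotype comparisons. In deficient against heterozygous libraries 22 stood higher and 35 lower (median log2 fold change -0.09). Brca2, the breast cancer susceptibility gene whose product binds PALB2, stood at -0.52 (SE 0.19, edgeR adjusted p = 0.379). In deficient against wildtype libraries Brca2 stood at -0.16 (SE 0.23). Brca2 also rose with the stage score, by 0.16 per unit (edgeR adjusted p = 0.0377). The damage-marking histone gene H2afx stood at 0.37 in deficient against heterozygous libraries (SE 0.14, edgeR adjusted p = 0.383). Usp1, which removes ubiquitin from FANCD2, stood at 0.41 against wildtype in deficient and at 0.38 in heterozygous libraries (edgeR adjusted p = 1.00 and 0.415). In deficient against wildtype libraries Trp53bp1, a brake on resection, followed at -0.32, and it stood at -0.31 beside Usp1 at 0.22 in deficient against both fertile genotypes. In heterozygous against wildtype libraries Rif1, which acts with it, stood at 0.55 (edgeR adjusted p = 0.411).

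With the stage score 15 of the 57 changed, 8 rising and 7 falling, against 24.6% of all genes. Uimc1 and Faap24 rose by 0.29 and 0.34 per unit of score (edgeR adjusted p = 0.000185 and 0.00085), while Parp1 and Faap20 fell by 0.20 and 0.33 per unit (edgeR adjusted p = 0.00287 and 0.0061). Uimc1 encodes the ubiquitin-binding subunit of a BRCA1 complex, Faap24 the partner of FANCM, Parp1 a sensor of DNA breaks, and Faap20 a core complex subunit. For Gm23935 none of the 57 was called, with Atr and Polq nearest (slopes 0.20 and 0.13, edgeR adjusted p = 0.0547 and 0.0575). For the March 7 term none was called either, with Rev3l at -0.60 and Mcm9 at 0.47 (edgeR adjusted p = 0.999 each).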

How the data were processed

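Per the submitters' processing notes, reads were trimmed with Trim Galore 0.5.0, aligned to GRCm38 with HISAT2 2.1.0 and counted with featureCounts (Subread 1.6.2). The deposited counts and the deposited TPM values (StringTie 1.3.3b) were used as the authors gave them; the strand setting and annotation are not given in the sources used here. Also used was the authors' deposited table of DESeq2 output: per the file headers a mean normalized signal, log2 fold changes, a test score and p-values.

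All 55536 identifiers matched GENCODE M21. Genes were filtered with filterByExpr (20317 kept), scaled with TMM and fitted in 1 edgeR 4.0.16 quasi-likelihood model of 3 genotypes over 10 libraries (R 4.3.3), with adjusted p over all tested genes and a call under 0.05. SE was derived from the F statistic, and intervals are 1.96 SE wide on each side. Stage, litter and Gm23935 terms were each added beside genotype; the last pair was chosen after seeing the data. Alternatives used limma 3.58.1 and DESeq2 1.42.0, pseudocounts of 0.1 and 1 for TPM, other scalings and filters, and each library left out. The test was checked on simulated counts. No pair of libraries agreed within sampling noise (lowest chi-square per degree of freedom 9.69).

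Members and lists were chosen with earlier results of these data known. The text names every called member (where none, the 2 of smallest p) and Rad51d throughout, and likewise up to 4 other pathway genes. Fanci, Fancc against both fertile genotypes and the members listed without overlap were named after their values were seen. So were Fancf with Gm23935, and Brca2 against wildtype and with stage. Of the 33 members, 4 overlap an annotated gene on their own strand, and 22 any gene, so their counts are uncertain.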

Additional observations from a re-analysis of the deposited data

Results flagged for a closer look

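In 7 of the 66 sets of 4 libraries searched (33 genes in deficient and in heterozygous libraries), 1 library stood far from the other 3. The rule is set so that chance marks about 1 set in 20. These sets share the same libraries and are not independent, and the share over all genes was not counted. Heterozygous replicate 1, the library with the lowest stage score, was such a library for Fanca (113 CPM, others 86.6 to 90.9), Fancc (45.4 CPM, others 54.3 to 54.9) and Rbbp8 (102 CPM, others 151 to 156). Deficient replicate 3, next lowest in stage score, stood at 36.4 CPM of Fancg against 52.4 to 54.2 CPM. Heterozygous replicate 3, low in Gm23935, stood apart in Brca1 (108 CPM, others 177 to 187) and Topbp1 (255 CPM, others 358 to 367). Deficient replicate 4, of the March 7 litter, stood at 20.01 CPM of Fancf against 5.12 to 7.24 CPM.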

How the results depend on the processing

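The 4 genotype comparisons called no repair gene under most of their 22 alternatives each. In deficient against heterozygous libraries limma voom with sample weights called 4. In heterozygous against wildtype libraries DESeq2, no filter on low counts, and leaving out the 3 libraries low in Gm23935 each called 1, Fancf. Rad51d kept its direction in deficient against heterozygous libraries in each of these alternatives (-0.65 to -0.36, adjusted p from 0.0289 to 0.765); in heterozygous against wildtype it reversed in TPM (-0.29 and -0.26 with pseudocounts of 0.1 and 1). No filter also called 1 member, Fancf, for the March 7 litter. For the stage score, against 8 calls, litter date as a term gave 5, TPM gave 5 with either pseudocount, leaving out the 2 libraries farthest from the median score gave 0 (Fancg at -0.018), and leaving out 1 library gave 0 to 9. For Gm23935, against 3 calls, DESeq2 gave 5, the stage score as a term 7, litter date as a term 0, TPM 1 with either pseudocount, and leaving out 1 library 0 to 4. The cause of these shifts was not tested. These counts of members are given without the share of all genes called in the same fit, so they cannot be read against that background. Over all genes, calls ran from 0 to 3012 (3 in the fit reported) in deficient against heterozygous, 0 to 1063 (1) in heterozygous against wildtype, 0 to 8 (1) against both fertile genotypes, 0 to 1 (0) against wildtype, 0 to 58 (0) for the March 7 litter, 0 to 7049 (5004) for stage and 78 to 2348 (725) for Gm23935.

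With the replicate block, no member was called for the stage score (0 against 8) or for Gm23935 (0 against 3), and no genotype comparison gained a call. The numbers did not pair the libraries: deviations of same-numbered deficient and heterozygous libraries correlated at -0.169, 0.382, -0.421 and -0.221, and deficient replicates 1, 3 and 4 did not correlate best with their own number.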
